A study of Mus musculus with 21 samples.

Results

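The Gata3 locus on mouse chromosome 2 was followed through 3 stages of early innate lymphoid cell (ILC) development, as every called peak that overlapped the 450 kb window chr2:9400000-9850000 on build mm9. The window holds Gata3, at about 9779000 to 9800000 on the minus strand, 50 kb upstream of it and the gene-poor stretch downstream. It contained 63 of the 215239 peaks in the 4 lists: 12 of 66499 DNase I hypersensitive sites (DHS) in ALP, 21 of 70088 in EILP, 29 of 71973 in ILCP and 1 of 6679 TCF1 peaks in EILP. Merged wherever peaks shared at least 1 bp, the DHS formed 36 of the 102384 regions of the series. Distances below run from the upper, promoter end of the gene at about 9800000 to the middle of each region.

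GATA3 is a zinc finger transcription factor that binds GATA sequences in DNA. It is required for T cells and for the helper-like ILC lineages, and it stays high in group 2 ILCs. TCF1, the HMG-box factor encoded by Tcf7, is needed for early ILC progenitors, and in T cell progenitors it is known to promote Gata3 expression. In mouse transgenic work, an enhancer active in T and NK cells was placed far 3′ of Gata3. A DHS is a site where chromatin is open to the nuclease, and the lists used here do not measure enhancer activity.

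All cells came from C57BL/6 bone marrow, with no age given. The all-lymphoid progenitor (ALP) carried Tcf7EGFP/+ and was sorted as Lin-, Kit+, 2B4+, a4b7-, Flt3high and IL-7Ra+. The early innate lymphoid progenitor (EILP) carried Tcf7EGFPnull/+ and was Lin-, Kit+, 2B4+, a4b7+, Tcf7+ and Thy1-. The ILC precursor (ILCP) carried Tcf7EGFP/+ and was Lin-, Kit+, 2B4+, a4b7+, Tcf7+, Thy1+ and IL-7Ra+. DNase-seq had 3 libraries of 300 cells per stage. CUT&RUN, in which an antibody directs a nuclease to the bound protein, had 6 TCF1 and 4 IgG libraries of 500 EILP cells. Some of these are technical repeats, so the titles give 4 library numbers for TCF1 and 3 for IgG. A further 2 CUT&RUN libraries have labels that conflict on the antibody and were put in no group, but the control pool named in the peak file includes their library number. The genotype label of EILP names a null reporter allele whereas the pooled EILP tag file was named WT, so stage and genotype cannot be told apart in comparisons with EILP. ILCP against ALP does not have this limit.

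Each list was called on 1 pooled tag file, so no value has a replicate error and no test was made. After the authors' filter the ALP file held 12420429 tags, the EILP file 11236009, the ILCP file 12681410 and the TCF1 file 2418839. The height of a peak is the number of 100 bp extended tags over its summit. Its 95% exact Poisson interval, and the exact interval of a ratio of depth-scaled heights, cover counting error only. A ratio compares the pooled files, not the stages. The lists hold positions without gene names, so the sorted cell types were not checked against marker genes.

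The promoter of Gata3 is shown because a DHS at the upper end of the gene was taller at each later stage in the pooled files. The 300 bases are those of the RefSeq table, chr2:9878551-9878850 on GRCm38.p6, minus strand, 5′ to 3′. Capitals mark the 50 bases from the annotated transcription start onwards, and lower case the 250 bases before it.

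Gata3 promoter: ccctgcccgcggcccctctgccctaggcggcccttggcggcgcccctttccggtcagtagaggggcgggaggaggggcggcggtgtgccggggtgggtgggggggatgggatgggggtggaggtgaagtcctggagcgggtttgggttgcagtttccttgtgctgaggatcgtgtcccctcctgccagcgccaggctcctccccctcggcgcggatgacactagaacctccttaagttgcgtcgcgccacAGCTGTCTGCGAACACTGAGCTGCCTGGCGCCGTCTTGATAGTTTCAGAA

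This stretch has a GC content of 67.3% and 22 CpG pairs, against medians of 52.7% and 7 over 32851 promoters of the same length. Of the TCF/LEF cores searched on both strands, CTTTGAT is held by 3.73% of all promoters, CTTTGTT by 5.85%, CTTTGTA by 3.63% and CTTTGAA by 5.14%, with 16.9% holding at least 1. The Gata3 stretch holds none of the 4. Of GATA sequences, GATAA, held by 25.4% of promoters, is not in these letters. TGATAG, held by 7.29%, occurs 1 time in the transcribed bases. With A or T before GATA and A or G after it, 29.8% of promoters hold at least 1 such sequence. The sequence table and the peak lists are on different builds, so whether the DHS lies inside these bases was not established. The RefSeq table also has 2 long non-coding RNAs overlapping Gata3, and to which of these genes the DHS belongs was not tested. Peak sequences are not shown, since no mm9 genome was used here.

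The first question was how many sites around Gata3 were open at each stage. The number of DHS peaks was higher at each later stage: 12 in ALP, 21 in EILP and 29 in ILCP. Together these peaks covered 2539 bp in ALP, 4715 bp in EILP and 6828 bp in ILCP. In ALP the density of 26.7 peaks per Mb was near the 25.9 of all chromosomes. In EILP it was 46.7 per Mb against 27.3 over all chromosomes, and in ILCP 64.4 against 28.0. Thus the locus held an ordinary number of sites in ALP and more than the average density in ILCP.

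The same genome was divided into 450 kb windows aligned to the Gata3 window, and 2527 of them had at least 10 ALP peaks. The ratio of ILCP to ALP peaks was 2.42 at Gata3, against a median of 1.05. In 11 of these windows, or 0.435%, ILCP had at least 2 times as many peaks as ALP, and no other window reached the Gata3 ratio. The EILP to ALP ratio was 1.75 at Gata3 against a median of 1.05, and 10 of the windows, this one included, reached it. With the windows moved by 225 kb, 13 of 2524 were at or above 2 times and the highest ratio was 2.4. These ranks describe the lists, and the ratio at Gata3 rests on 12 ALP peaks. The Gata3 window was chosen with earlier results of these data known, and the first grid was aligned to it. Its rank is therefore not independent of that choice.

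Of the 21 EILP regions in the window, 14 (66.7%, 95% Wilson interval 45.4 to 82.8) were not open in ALP, and over the series this held for 28.1% of EILP regions. The Wilson intervals, here and for the TCF1 share below, treat regions as independent draws. Neighbouring regions of the same locus in pooled lists may not be independent, so the intervals do not test the window against the series. Of the 29 ILCP regions, 21 (72.4%, 54.3 to 85.3) were not open in ALP, against 38.1% in the series. Of the same 29, 13 (44.8%, 28.4 to 62.5) were not open in EILP, against 30.6%. For losses, 5 of 12 ALP regions were not open in EILP (41.7%, 19.3 to 68.0, series 24.1%), 4 of 12 were not open in ILCP (33.3%, 13.8 to 60.9, series 32.6%), and 5 of 21 EILP regions were not open in ILCP (23.8%, 10.6 to 45.1, series 28.4%).

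Sorted by pattern, 11 of the 36 regions were open in EILP and ILCP and not in ALP (30.6%, against 9.27% of all regions). A further 10 were open in ILCP alone (27.8%, against 17.2%). Only 5 regions were open in all 3 stages (13.9%, against 39%). The other classes were small, with 3 regions open in ALP and ILCP (series share 4.09%), 3 in EILP alone (9.65%), 2 in ALP and EILP (9.52%) and 2 in ALP alone (11.3%).

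**Figure D1:**
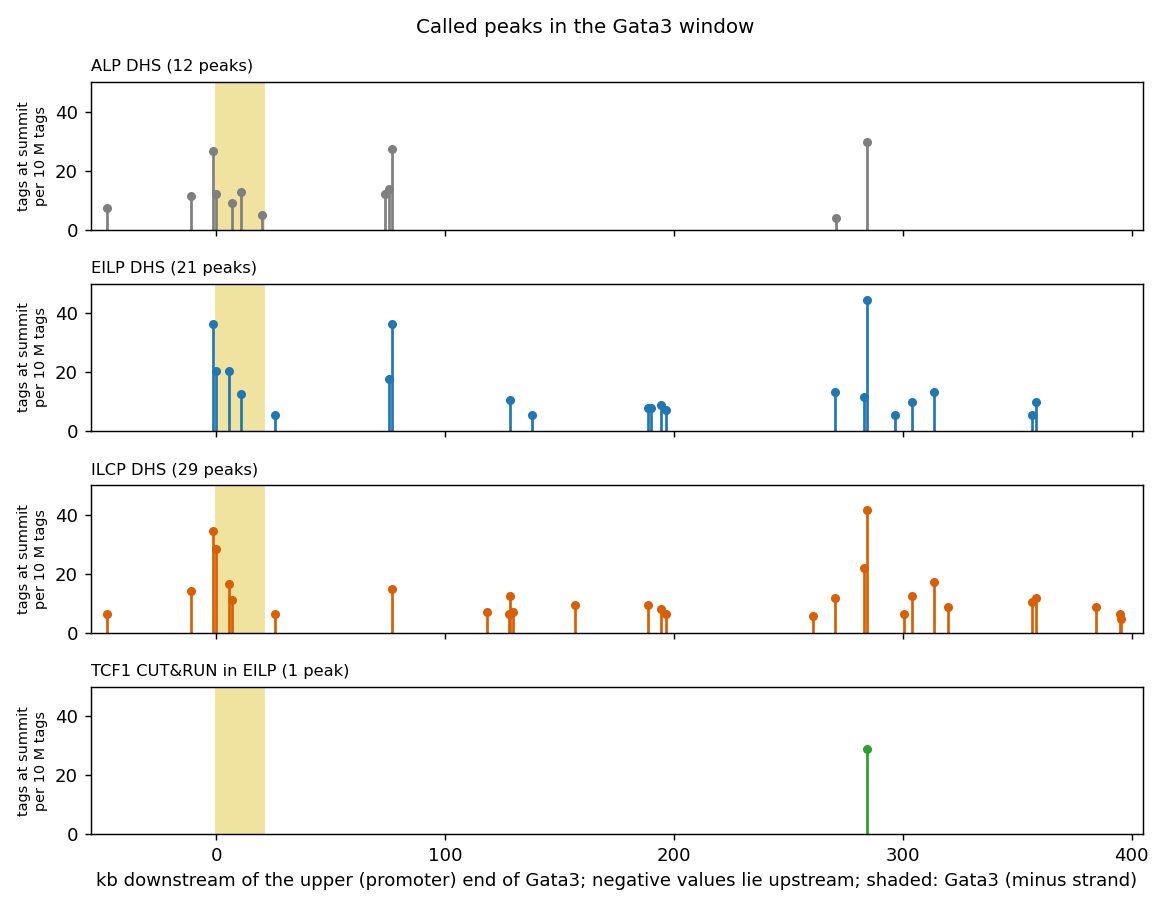
Called peaks in the Gata3 window by stage and for TCF1; the horizontal axis is the distance in kb downstream of the upper end of Gata3 and the vertical axis the tags at the summit per 10 M filtered tags. ALP has 12 peaks, 10 of them upstream or within 100 kb of the gene end. EILP and ILCP also have peaks at 100 to 200 kb and 300 to 400 kb downstream, with gaps of up to 73.7 kb in EILP and 64.0 kb in ILCP. The TCF1 peak stands at 284.2 kb and rests on 7 tags.

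Of the 24 regions absent from ALP, 22 lay more than 100 kb downstream. More than 100 kb downstream, ALP had 2 peaks, EILP 14 and ILCP 21. In the rest of the window, which is the upstream flank, the gene and the first 100 kb, ALP had 10 peaks, EILP 7 and ILCP 8. In ALP there was no peak between 100 and 200 kb downstream, where EILP had 6 and ILCP 8, and none between 300 and 400 kb, where EILP had 4 and ILCP 9. Between 200 and 300 kb, ALP had 2 peaks and EILP and ILCP 4 each. The widest stretch without a peak was 193.7 kb in ALP, 73.7 kb in EILP and 64.0 kb in ILCP. In the RefSeq table, 9 genes lie between Gata3 and the next protein-coding gene on this side, Celf2, all of them long non-coding RNAs or pseudogenes.

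**Figure D2:**
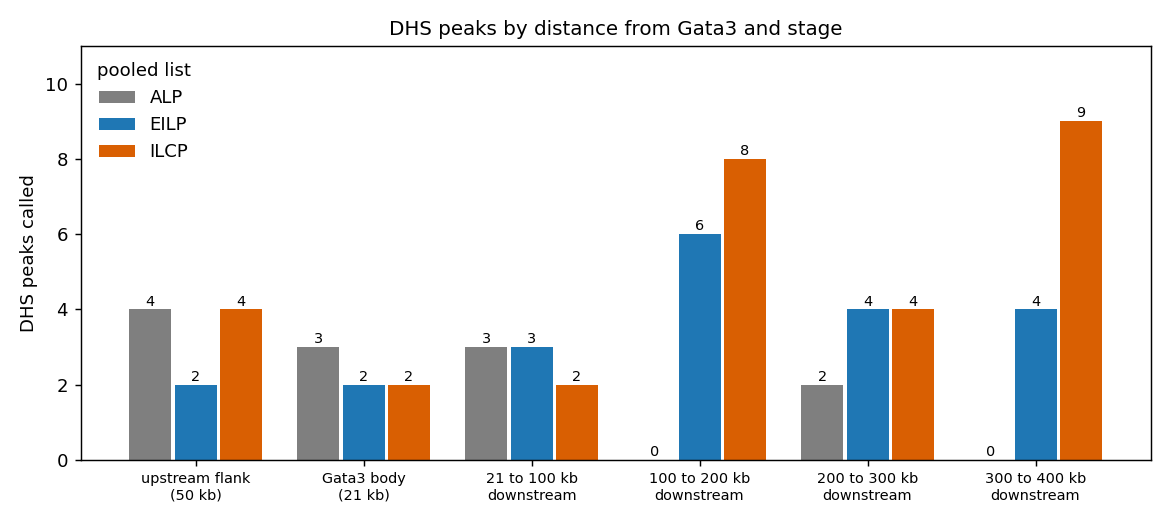
Number of DHS peaks called in ALP, EILP and ILCP in 6 zones ordered from 50 kb upstream of Gata3 to 400 kb downstream; bars are counts from 1 pooled list per stage. The 3 zones nearest the gene hold 2 to 4 peaks in every list, and the zones at 100 to 200 kb and 300 to 400 kb hold 0 in ALP, 6 and 4 in EILP, and 8 and 9 in ILCP.

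Of the 24 regions beyond 100 kb, 9 were open in EILP and ILCP, 10 in ILCP alone, 3 in EILP alone and 2 in all stages. The ALP regions numbered 2 here and both were kept in EILP and in ILCP. Most of the added sites were weak. Median height beyond 100 kb was 11 tags in ILCP and 10.5 in EILP, against 13 in each of these lists as a whole. These medians include the 2 regions shared with ALP, and sites absent from ALP elsewhere in the series were not compared. Taken to ALP depth, the higher of the EILP and ILCP heights of the 24 window regions absent from ALP ran between 5.88 and 27.4 tags with a median of 10.4. The lowest height anywhere in the ALP list was 5 tags and its median 14, which 6 of the 24 reached. A region without a peak in ALP was one not called there at the authors' cutoff, which does not show that it was closed.

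Among the regions absent from ALP, the strongest in EILP lay inside Gata3, 5.5 kb below its upper end at chr2:9794300-9794680. It had no peak in ALP, 23 tags (14.6 to 34.5) in EILP and 21 tags (13.0 to 32.1) in ILCP. The later 2 stages overlapped in their intervals, with an ILCP over EILP height ratio of 0.81 (0.43 to 1.53). Its EILP peak stood at percentile 68.0 of the EILP list by the authors' fold enrichment.

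The next by EILP fold enrichment lay in the downstream desert. The region 313.6 kb downstream (chr2:9486129-9486602) had 22 tags (13.8 to 33.3) in ILCP and 15 (8.40 to 24.7) in EILP. The region 128.3 kb downstream (chr2:9671544-9671815) had 16 tags (9.15 to 26.0) in ILCP and 12 (6.20 to 20.96) in EILP. By ILCP height, the region 282.9 kb downstream (chr2:9516995-9517242) led this class, with 28 tags (18.6 to 40.5) in ILCP and 13 (6.92 to 22.2) in EILP. Its ILCP over EILP height ratio was 1.91 (0.96 to 4.01), short of 2-fold. The other 7 regions of this class had 8 to 16 tags in ILCP and 6 to 11 in EILP. They include a group at 188.6 to 196.6 kb downstream, where ILCP had 3 peaks. EILP had 4 peaks there, including that of a region open in EILP alone, 190.0 kb downstream. At 196.6 kb the EILP and ILCP peaks shared only 5 bp, with summits 88 bp apart.

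The regions open in ILCP alone all lay more than 100 kb downstream and had 6 to 12 tags. The strongest by fold enrichment were 156.9 kb downstream (chr2:9642989-9643172, 12 tags, 6.20 to 20.96), 384.4 kb downstream (chr2:9415497-9415674, 11 tags, 5.49 to 19.7) and 118.5 kb downstream (chr2:9681347-9681575, 9 tags, 4.12 to 17.1). The 3 regions open in EILP alone had 9, 6 and 6 tags and lay 190.0, 296.4 and 137.7 kb downstream.

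Regions open in ALP and absent from a later stage all lay upstream or within 100 kb of the gene's upper end. The regions in ALP alone were at 73.9 kb (chr2:9726061-9726214, 15 tags, 8.40 to 24.7) and in the gene at 19.8 kb (chr2:9780108-9780207, 6 tags, 2.20 to 13.1). The regions in ALP and EILP were at 75.6 kb (chr2:9724255-9724472), with 20 tags in EILP and 17 in ALP, and in the gene at 10.7 kb (chr2:9789193-9789418), with 14 in EILP and 16 in ALP.

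The 3 regions open in ALP and ILCP and absent from EILP were at 7.0 kb in the gene (chr2:9792957-9793091), 11.1 kb upstream (chr2:9810953-9811187) and 48.0 kb upstream (chr2:9847875-9848049). In ILCP they had 14, 18 and 8 tags, and in ALP 11, 14 and 9. The EILP file had the lowest depth of the 3 stages and a genotype label of its own, and the part of either in these absences was not tested.

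The second question was whether the sites open at more than 1 stage differed in height. Of 7 regions shared by EILP and ALP, 6 were higher in EILP at equal depth (series 30073 of 49631). The median ratio was 1.37, against 1.11 over the 49631 regions shared in the series. Only 1 of the 7 passed 2-fold, and 4.4% of shared regions in the series were past 2-fold higher and 1.94% past 2-fold lower. Between ILCP and EILP, 9 of 16 were higher in ILCP (series 21947 of 49369). Past 2-fold, 0 were higher (series 2.39%) and 1 lower (series 5.22%), and the median was 1.18 against 0.96. Between ILCP and ALP, 6 of 8 were higher in ILCP (series 23635 of 44072), with a median of 1.28 against 1.04. Of these, 2 passed 2-fold higher (series 4.22%) and 0 passed 2-fold lower (series 5.71%). With so few members these shares say little about the locus, and the single regions follow.

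The DHS at the upper end of Gata3 (chr2:9800126-9800363) had 15 tags (8.40 to 24.7) in ALP, 23 (14.6 to 34.5) in EILP and 36 (25.2 to 49.8) in ILCP. Its height was stepwise greater along the stages, and ILCP over ALP was 2.35 at equal depth (1.26 to 4.62). Neither single step had an interval that left out 1: EILP over ALP was 1.69 (0.85 to 3.49) and ILCP over EILP 1.39 (0.80 to 2.45).

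The neighbouring DHS 1.3 kb upstream (chr2:9801186-9801495) was taller and differed less. It had 33 tags (22.7 to 46.3) in ALP, 41 (29.4 to 55.6) in EILP and 44 (32.0 to 59.1) in ILCP. The ILCP over ALP ratio was 1.31 (0.81 to 2.12).

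The DHS 76.7 kb downstream (chr2:9723064-9723517) was the one shared region past 2-fold lower at a step. It had 34 tags (23.5 to 47.5) in ALP, 41 (29.4 to 55.6) in EILP and 19 (11.4 to 29.7) in ILCP. ILCP over EILP was 0.41 (0.23 to 0.72), and ILCP over ALP was 0.55 (0.30 to 0.99). In ILCP the summit lay 157 bp from the EILP summit, inside a peak that still spanned 454 bp. Both DHS beside it, at 75.6 and 73.9 kb, had no ILCP peak, so this cluster had 3 peaks in ALP, 2 in EILP and 1 in ILCP while the sites farther away were added.

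The region 270.5 kb downstream (chr2:9529299-9529675) had 5 tags (1.62 to 11.7) in ALP, 15 (8.40 to 24.7) in EILP and 15 (8.40 to 24.7) in ILCP. EILP over ALP was 3.32 (1.15 to 11.7) and ILCP over ALP 2.94 (1.02 to 10.3). Its ALP peak was at percentile 0.10 of the ALP list, shared 53 bp with the EILP peak, and had its summit 147 bp away, so it is close to a region absent from ALP.

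**Figure D3:**
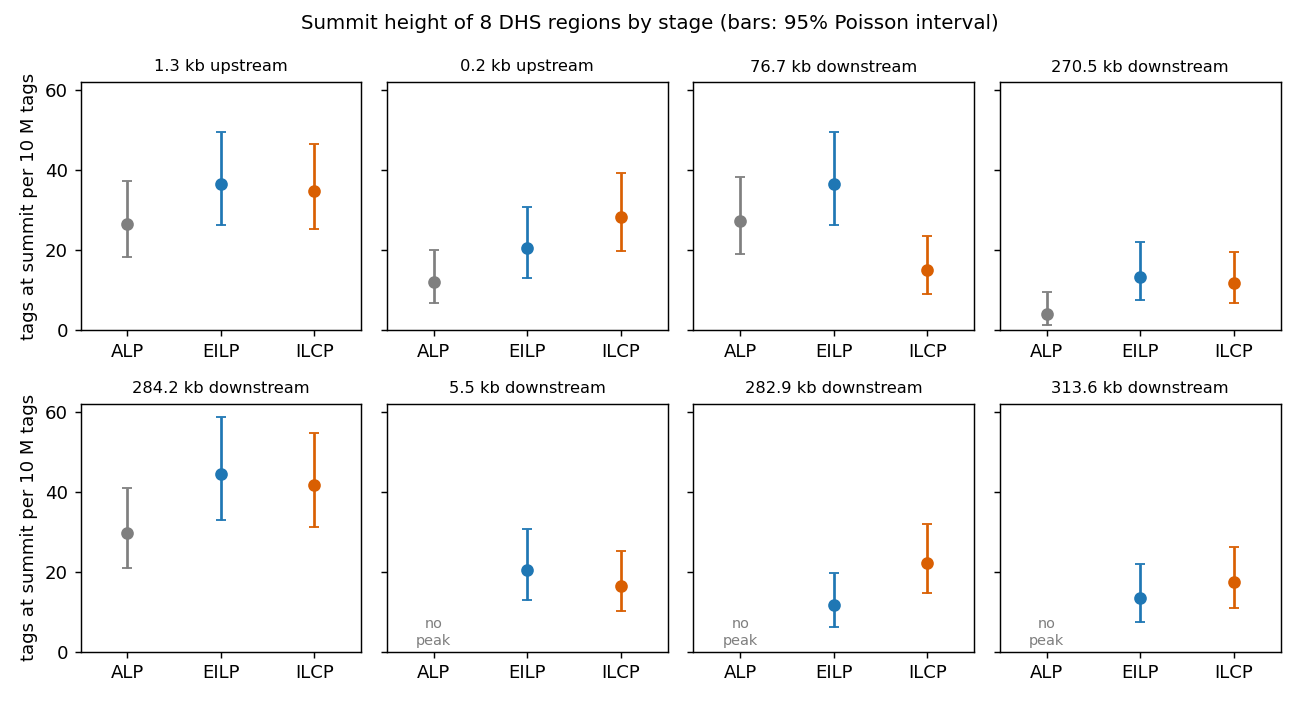
Summit height in tags per 10 M filtered tags at the 5 regions open in all 3 stages and at 3 regions open in EILP and ILCP; points are pooled values and bars their 95% Poisson intervals. The DHS at 0.2 kb upstream is higher at each later stage, the DHS at 76.7 kb downstream is lowest in ILCP, and the last 3 panels have no ALP peak.

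The strongest DHS of the EILP list in the window lay in the desert, 284.2 kb downstream (chr2:9515501-9516071). It had 37 tags (26.1 to 51.0) in ALP, 50 (37.1 to 65.9) in EILP and 53 (39.7 to 69.3) in ILCP, at percentiles 89.7, 93.7 and 85.5 of those lists. It was open at all stages with overlapping intervals: EILP over ALP was 1.49 (0.96 to 2.35), ILCP over EILP 0.94 (0.63 to 1.41) and ILCP over ALP 1.40 (0.905 to 2.20). Its summit was not at 1 place, with the EILP summit 111 bp and the ILCP summit 135 bp nearer to Gata3 than the ALP summit.

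The tags around this site were also counted. Each DNase list gives, through height and fold enrichment, the number of tags in the 10 kb about a summit, those of the peak itself included. These counts came out whole or at the genome-wide minimum for 100% of the peaks of each list, within 0.05 tags. About the site at 284.2 kb there were 198 tags in ALP, 260 in EILP and 360 in ILCP. At equal depth, EILP over ALP was 1.45 (1.2 to 1.76), ILCP over EILP 1.23 (1.04 to 1.44) and ILCP over ALP 1.78 (1.49 to 2.13). The region at 282.9 kb lies inside the same 10 kb and adds to the later counts.

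Around the promoter the 10 kb counts gave a like order. At the DHS at the upper end of the gene there were 222 tags in ALP, 290 in EILP and 358 in ILCP, an ILCP over ALP ratio of 1.58 (1.33 to 1.88). The ratio at the DHS 1.3 kb upstream, whose 10 kb largely overlap these, was 1.60 (1.35 to 1.89). At the DHS 76.7 kb downstream there were 180 tags in ALP, 208 in EILP and 119 in ILCP, and ILCP over ALP was 0.65 (0.51 to 0.82). Past 1.5-fold between ILCP and ALP were 3 of 7 window regions on the higher side (series 4.5%) and 1 on the lower (series 5.22%). The 3 cover only 2 separate places. Between EILP and ALP, 0 of 7 passed on the higher side (series 3.81%) and 0 on the lower (series 1.77%). Between ILCP and EILP, 1 of 16 passed on the higher side (series 2.08%), the region 356.3 kb downstream, and 1 on the lower (series 4.19%), the region 76.7 kb downstream.

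**Figure D4:**
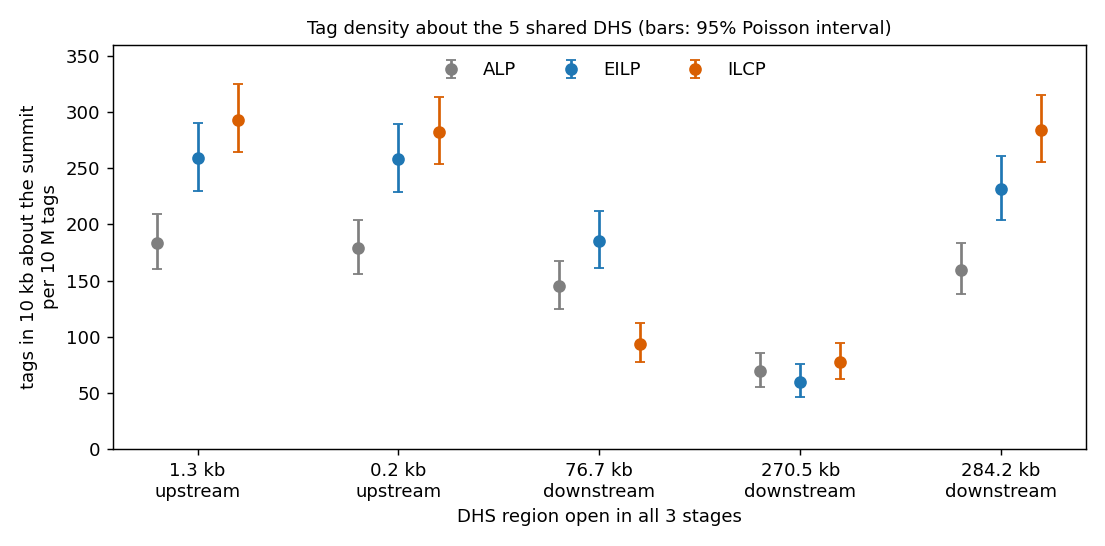
Tags in the 10 kb about the summit, per 10 M filtered tags, at the 5 regions open in all 3 stages; points are pooled values and bars 95% Poisson intervals. ILCP is highest and ALP lowest at 1.3 kb and 0.2 kb upstream and at 284.2 kb downstream, ILCP is lowest at 76.7 kb, and the 3 stages are close together at 270.5 kb.

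The third question was where TCF1 was found at Gata3 in EILP. The single TCF1 peak in the window (chr2:9515649-9515811) lay inside the DHS at 284.2 kb. It had 7 tags (2.81 to 14.4) over its summit, against a control background of 0.249 tags at the depth of the TCF1 file. The authors' fold enrichment was 6.41, at percentile 87.7 of the TCF1 list, whose median height was 5 tags. The TCF1 summit fell on the same base as the ALP summit of this DHS, 111 bp from the EILP summit and 135 bp from the ILCP summit.

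No TCF1 peak lay in the gene, at its promoter or upstream. Of all 36 regions of the window 1 carried TCF1, against 4.16% in the series, and of its 5 regions open in all 3 stages 1 did, against 7.82% in the series. Of the 21 EILP-open regions of the window, 1 carried TCF1 (4.76%, 0.85 to 22.7), against 5.62% in the series, so the share was near the background. Of the 14 regions open in EILP and not in ALP, 0 did, which allows a share of up to 21.4% (3 counts of 14), against 3.01% in the series. The density of TCF1 peaks was 2.22 per Mb in the window and 2.60 over all chromosomes. The TCF1 file held 2418839 tags, and 3 tags was the lowest height in its list. Among the 2527 windows of the same length, 1133 had at most 1 TCF1 peak, and the median was 2.

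**Figure D5:**
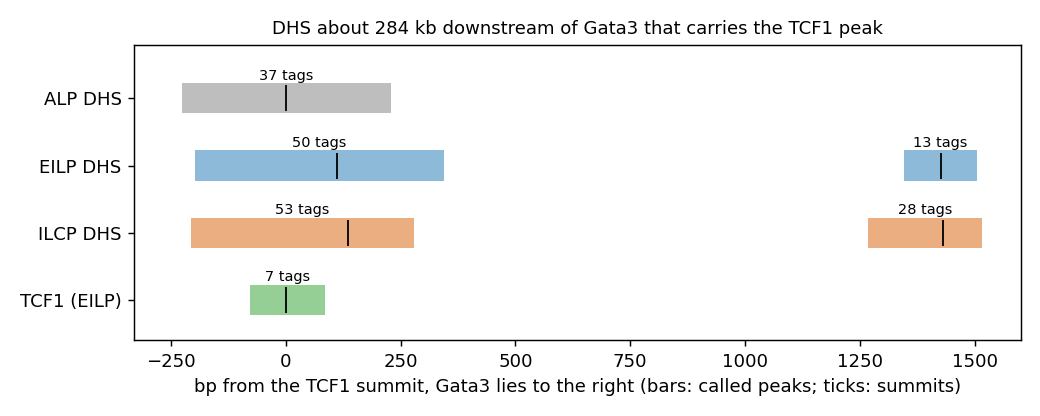
The DHS 284.2 kb downstream of Gata3 and its neighbour in the 3 DHS lists and the TCF1 list; bars are called peaks, ticks are summits, numbers are summit heights in tags, and the axis is the distance in bp from the TCF1 summit. TCF1 and ALP summits coincide, the EILP and ILCP summits lie 111 and 135 bp to the right, and the neighbouring DHS has no peak in ALP, 13 tags in EILP and 28 in ILCP.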

How the data were processed

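The peaks are the authors' MACS 2.1.1.20160309 calls, per the file headers. The q cutoff was 0.05, and each list came from 1 pooled file of 50 bp tags, with 1 tag kept per position and 100 bp fragments. DNase tags were shifted by 50 bp without a control, per the file headers. The TCF1 calls used a pooled IgG control with local windows of 1 kb and 10 kb. That pool includes the library number of the 2 libraries whose labels conflict on the antibody. Positions are on mm9, the build named in the submitters' processing notes. No aligner is given in the sources used here. The deposited values are the pileup signal (height), the fold enrichment (a ratio of height plus 1 to local background plus 1), and −log10 of the q-value. Fold enrichment was used only to rank peaks within 1 list.

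The 3 DHS lists were merged wherever peaks shared 1 bp. Heights were compared between lists by their highest summit per region, divided by filtered tags, with 2-fold as the rule and exact conditional intervals. Tags in 10 kb were worked out from height and fold enrichment, with 1.5-fold as the rule. This measure, the counts beyond 100 kb, the GATA sequences other than GATAA and the windows moved by 225 kb were added after the data were seen. Merging, scaling and this conversion were tested on simulated lists. Described in full were the TCF1 peak and its region, the promoter region and those in the gene, the 5 highest EILP folds, regions past 2-fold and the 3 strongest of each other pattern. The window and lists were chosen with earlier results of these data known. Python 3.11.15, pandas 2.3.3 and SciPy 1.17.1 were used. Genes whose pattern resembles Gata3 were not sought, because the lists give positions only.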

Additional observations from a re-analysis of the deposited data

How the results depend on the processing

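No paired analysis was possible because each list pools its libraries, and for the same reason no replicate could be left out. Of 107 alternative values, 88 stayed within 1.5 times the reported count. Presence depends on the cutoff, since most added sites were weak. With the 50000 strongest peaks of each list, 8 regions were open in ALP, 12 in EILP and 18 in ILCP. Under this setting, 7 were open in EILP and not ALP and 14 in ILCP and not ALP. In ALP and not EILP there were 3, and in ALP and not ILCP 4. In ILCP and not EILP there were 8, in EILP and not ILCP 2, and in all stages 3. Without the upstream flank, 3 regions were open in ALP and not EILP and 3 in all stages. With 1.5-fold as the rule, 2 heights were higher in EILP than ALP, 2 were higher in ILCP than EILP and 1 was lower in ILCP than ALP. With the median ratio over the series set to 1, 1 height passed 2-fold higher in ILCP than EILP. Beyond 100 kb downstream, the 50000 strongest peaks left 1 in ALP, 6 in EILP and 13 in ILCP. Heights of at least 9 tags at ALP depth left 1 in ALP, 10 in EILP and 13 in ILCP, and a −log10 q of at least 3 left 1 in ALP, 13 in EILP and 19 in ILCP. Beyond 100 kb, the order of the 3 stages was the same under these 3 settings. The TCF1 peak met all 4 alternatives tried for it. The TCF1 list rests on 2418839 tags.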

Other observations

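The 450 kb on either side of the window were counted in the same way. Below the window, farther downstream of Gata3, there were 3 DHS peaks in ALP, 3 in EILP and 7 in ILCP, with 0 TCF1 peaks. None of the EILP and ILCP regions there was open in ALP, which makes 3 regions for EILP and 7 for ILCP. The number of ILCP peaks was thus also more than 2 times that of ALP, from a total too low for the windows compared above. Above the window, on the side of Taf3, the next protein-coding gene in the RefSeq table, there were 20 peaks in ALP, 19 in EILP and 27 in ILCP, with 2 TCF1 peaks. In the Gata3 window 14 of 21 EILP regions and 21 of 29 ILCP regions were not open in ALP, against 4 of 19 EILP regions and 11 of 26 ILCP regions above it. Regions of the window open in all 3 stages had a median width of 377 bp, against 291 bp for such regions in the series, and those open in ILCP alone 179.5 bp. These are widths after merging, so regions joined from several peaks are wider by construction. The 377 bp rests on 5 regions.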
